A study of Mus musculus with 6 samples.

Results

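The Egr and Nr4a transcription factors of the mouse cerebral cortex were described over 7 genes (Egr1, Egr2, Egr3, Egr4, Nr4a1, Nr4a2 and Nr4a3) of the 55421 genes with a deposited value. The genes were chosen by symbol, and the set was chosen from measured values of these same libraries, in which its members had been seen to differ between mice. Cortices were microdissected from male wild-type C57BL/6J mice, of which 3 (numbered 10, 11 and 17) were 6 months old and 3 (numbered 2, 4 and 5) were 24 months old. All mice were anesthetized with isoflurane before cervical dislocation, and no other treatment, transgene or deletion was stated for either age. Each mouse gave 1 low-input library from whole cortical tissue, so that the expression of the 2 ages was compared in bulk RNA of males of 1 strain.

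The 7 genes encode nuclear factors whose transcripts appear within minutes of synaptic activity or of growth factor signaling, without prior protein synthesis. The Egr proteins bind GC-rich sites through zinc fingers. The Nr4a proteins are orphan nuclear receptors that work without a known ligand and can bind DNA alone or, for Nr4a1 and Nr4a2, together with a retinoid X receptor. Their promoters are read by CREB-family factors at the cyclic AMP response element and by serum response factor (SRF) at the CArG box. In the cortex these transcripts are used as markers of recent neuronal activity.

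Counts summed to 29495379 to 36494240 per library, and 2.61 to 3.25% of the counts were mitochondrial. The 24-month libraries had counts on 40208 to 43561 genes and the 6-month libraries on 33974 to 35651 genes. Values are given as TMM-scaled CPM, the counts scaled to a fixed library size, and as deposited TPM, which is per transcript length, where genes are compared with each other. The neuron markers summed to 5521 to 8778 CPM in the 6 libraries, and the choroid plexus markers to 16.6 to 43.9 CPM. The 24-month mouse 2 had the lowest summed markers of neurons (5521 CPM, against 6336 to 8778 in the other 5 mice), of inhibitory neurons (579 CPM, against 691 to 836) and of oligodendrocytes (1113 CPM, against 2136 to 3688). These sums follow their most abundant markers. Snap25, Syt1 and Tubb3 were lowest in mouse 2, and Rbfox3 was lowest in mouse 4 (300 CPM, against 316 in mouse 2). Gad1, Gad2, Slc32a1 and Pvalb were lowest in mouse 2. Vip was highest there (51.4 CPM), and Sst was at 156 CPM, above mice 4 and 5 (127 and 135 CPM). Mouse 2 was also lowest for the summed markers of astrocytes, microglia, endothelial cells, meningeal fibroblasts, red blood cells, dentate gyrus, striatum and thalamus. The margin was small for astrocytes (1660 CPM, against 1711 to 1831) and microglia (387 CPM, against 400 to 430). Mouse 2 was not lowest for the choroid plexus markers (40.1 CPM). The excitatory neuron markers Slc17a7, Camk2a and Neurod6 did not set it apart, since they summed to 2286 CPM in mouse 2, 2127 CPM in mouse 4 and 2440 CPM in mouse 5, and to 2659 to 2917 CPM at 6 months. The part of these differences in the values below was not tested, and in bulk tissue fewer cells of a type and less RNA per cell cannot be told apart.

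The stretches before the annotated starts of 5 of the genes are shown because the genes moved together between mice. They come from RefSeq promoters of GRCm38.p6 and end at the base before a GENCODE vM21 transcript start, written 5′ to 3′ on the strand of the gene. Egr1 and Egr3 had no sequence in the table used. Capitals mark TGACG, the core of the cyclic AMP response element, on either strand, and before Egr2-201 also the CArG box. The Nr4a3 stretch was cut to the 98 bases before its annotated exon.
Egr2, before Egr2-205: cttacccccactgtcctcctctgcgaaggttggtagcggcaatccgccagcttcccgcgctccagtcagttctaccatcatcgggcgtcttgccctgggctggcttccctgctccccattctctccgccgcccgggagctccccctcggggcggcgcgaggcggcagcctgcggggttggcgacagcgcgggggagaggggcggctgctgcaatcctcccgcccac
Egr2, before Egr2-201: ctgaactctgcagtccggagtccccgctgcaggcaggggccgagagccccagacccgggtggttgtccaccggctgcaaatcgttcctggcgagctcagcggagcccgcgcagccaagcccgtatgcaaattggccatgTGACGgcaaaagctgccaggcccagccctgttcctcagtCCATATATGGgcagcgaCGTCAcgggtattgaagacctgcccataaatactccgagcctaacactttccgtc
Egr4: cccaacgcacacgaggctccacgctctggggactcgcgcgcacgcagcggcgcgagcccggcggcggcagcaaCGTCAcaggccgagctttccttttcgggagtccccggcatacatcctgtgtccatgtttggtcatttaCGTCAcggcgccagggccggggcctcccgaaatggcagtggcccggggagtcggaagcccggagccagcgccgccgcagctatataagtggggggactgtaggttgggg
Nr4a1: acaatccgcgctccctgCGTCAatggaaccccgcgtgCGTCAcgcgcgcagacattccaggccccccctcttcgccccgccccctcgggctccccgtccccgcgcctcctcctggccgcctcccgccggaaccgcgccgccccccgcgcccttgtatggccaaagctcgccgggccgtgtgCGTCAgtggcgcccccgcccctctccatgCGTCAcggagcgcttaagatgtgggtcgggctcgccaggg
Nr4a2: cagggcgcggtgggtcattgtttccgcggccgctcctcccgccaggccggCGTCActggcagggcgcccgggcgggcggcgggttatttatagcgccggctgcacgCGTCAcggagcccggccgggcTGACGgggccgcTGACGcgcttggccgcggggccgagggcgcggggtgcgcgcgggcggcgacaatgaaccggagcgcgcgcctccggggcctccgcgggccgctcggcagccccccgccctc
Nr4a3: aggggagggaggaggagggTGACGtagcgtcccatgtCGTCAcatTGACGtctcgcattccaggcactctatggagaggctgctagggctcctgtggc

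The Egr2 stretch before the annotated start of the gene and of transcript Egr2-205 lay at chr10:67535249-67535474 on the plus strand and held none of the motifs searched. The other Egr2 stretch lay at chr10:67537619-67537868 on the plus strand, before transcript Egr2-201 and inside an intron of longer Egr2 transcripts. It held 2 TGACG cores, and a CArG box at 72 to 63 bases before the start. The Egr4 stretch lay at chr6:85513590-85513839 on the minus strand and held 2 cores. The Nr4a1 stretch lay at chr15:101266596-101266845 on the plus strand, inside an intron of transcript Nr4a1-202, and held 4 cores. The Nr4a2 stretch lay at chr2:57124004-57124253 on the minus strand and held 4 cores, and the Nr4a3 stretch at chr4:48045055-48045152 on the plus strand held 3. Of 32851 windows of 250 bases before RefSeq starts, 17.8% held at least 1 TGACG core, 3.9% at least 2, 0.137% at least 4, and 1.47% a CArG box. The full cyclic AMP response element TGACGTCA, which contains TGACG on both strands and was in 1.55% of all windows, and the Nr4a site AAAGGTCA, in 1.34%, were in none of the 6 stretches. These matches are letters in a window and not measured binding.

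Egr1, the most abundant member and the one most used to map neuronal activity, is on chromosome 18 (34859823 to 34864984, plus strand). At 6 months its counts were 22538 in mouse 10, 31039 in mouse 11 and 16620 in mouse 17. At 24 months they were 20277 in mouse 2, 8896 in mouse 4 and 6400 in mouse 5. Mouse 2 was within the range of the 6-month mice and mice 4 and 5 were below every one of them. In CPM the level was 713 ± 196 (SD, n = 3) at 6 months and 357 ± 235 (SD, n = 3) at 24 months, a log2 fold change (24 minus 6 months) of -0.998 with an SE of 0.38. Egr1 also had the smallest spread between mice of the 6 genes other than Egr3, with a 1.77-fold ratio of the highest to the lowest CPM at 6 months and a 3.32-fold ratio at 24 months.

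Egr2, a factor known for hindbrain patterning and for myelination in Schwann cells, is on chromosome 10 (67535475 to 67542188, plus strand). Its CPM was 61.7, 79.0 and 24.8 at 6 months (mice 10, 11 and 17) and 89.1, 4.57 and 4.64 at 24 months (mice 2, 4 and 5). Mouse 2 had the highest level of all 6 mice, and mice 4 and 5 the lowest. The highest CPM was 19.5-fold the lowest at 24 months, the widest ratio of the 7 genes, and 3.18-fold at 6 months. The log2 fold change was -0.75 with an SE of 0.95. From these libraries the study counted Egr2 among its genes changed at 1% FDR, as lower at 24 months. It reported the same direction by qPCR in more mice, of both sexes. Here Egr2 did not pass 10% FDR with any test, scaling or filter that kept all 6 mice.

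Egr3, a factor induced downstream of synaptic activity and required for muscle spindles, is on chromosome 14 (70077203 to 70082614, plus strand), and its order over the mice differed from that of the other members. Its CPM was 155.5, 168 and 248 at 6 months (mice 10, 11 and 17) and 219, 155.5 and 134 at 24 months (mice 2, 4 and 5). The highest value was that of the 6-month mouse 17, in which each of the other 6 genes had its lowest 6-month value. Mouse 4 was at the level of the lowest 6-month mouse, below it by less than the printed precision, and mouse 5 was lower. In deposited TPM mouse 4 (134.3) was above the 6-month mouse 10 (123.3). The ratio of highest to lowest was 1.60-fold at 6 months and 1.63-fold at 24 months, and the log2 fold change was -0.17 with an SE of 0.21.

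Egr4, the fourth Egr gene, is on chromosome 6 (85511121 to 85513589, minus strand). Its CPM was 54.7, 93.6 and 46.8 at 6 months and 98.0, 25.6 and 22.4 at 24 months, with the mice in the same order. Mouse 2 was just above the highest 6-month mouse, and mice 4 and 5 were below the lowest. The log2 fold change was -0.42 with an SE of 0.50.

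Nr4a1, the most abundant of the orphan receptors and one of the most rapidly induced, is on chromosome 15 (101254269 to 101274795, plus strand). Its CPM was 355, 386 and 194 at 6 months and 504, 48.4 and 63.3 at 24 months. Mouse 2 had 10.4 times the level of the lowest mouse of its own age, and the 6-month mice differed by at most 1.98-fold. The log2 fold change was -0.60 with an SE of 0.73.

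Nr4a2, which in the midbrain is needed for dopaminergic neurons, is on chromosome 2 (57106830 to 57124003, minus strand). Its CPM was 13.4, 33.5 and 8.37 at 6 months and 21.2, 4.48 and 4.70 at 24 months. It had the widest spread of the 7 genes among the 6-month mice, 4.00-fold from lowest to highest, and the log2 fold change was -0.87 with an SE of 0.62.

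Nr4a3, the least abundant member, is on chromosome 4 (48045153 to 48086447, plus strand). Its counts were 219, 308 and 163 at 6 months and 452, 140 and 93 at 24 months. Its mean CPM was nearly the same at both ages, 7.002 ± 1.98 (SD, n = 3) and 6.90 ± 6.12 (SD, n = 3), while the 24-month mice lay on both sides of the 6-month range. The log2 fold change was -0.02 with an SE of 0.50.

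**Figure D1:**
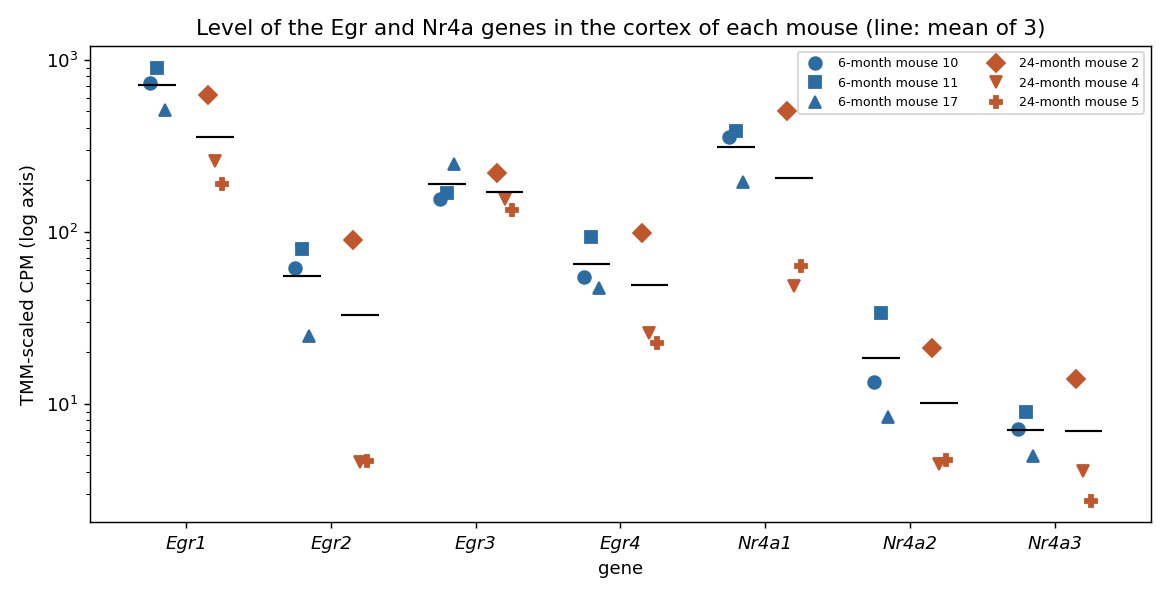
TMM-scaled CPM (log axis) of the 7 genes in each mouse, 6-month mice in blue and 24-month mice in orange, with 1 symbol per mouse and a line at the mean of 3. The 24-month mouse 2 lies within or above the 6-month mice for all 7 genes, and mice 4 and 5 lie below them, except that for Egr3 mouse 4 is level with the lowest of them.

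None of the 7 genes separated the ages, since mouse 2 was within or above the 6-month range for all of them. Non-overlapping ages were seen for 0 of the 7 genes and for 36.3% of the 32905 genes tested. By the quasi-likelihood test of edgeR, with p-values adjusted over all genes by Benjamini-Hochberg, 0 of the 7 genes and 0 genes overall (0%) passed 1% FDR, and the lowest adjusted p of any gene was 0.021. At 10% FDR 0 of the 7 genes passed, against 18.4% of all genes in either direction and 8.33% that were lower at 24 months. Among the genes with at least 1 CPM, 17.3% were lower at this threshold. Without adjustment, 10097 genes overall and 1 of the 7 had a p under 0.05. Since the genes were chosen on these libraries, nothing is read from these counts. All 7 log2 fold changes were below 0, with a median of -0.60, where all genes tested had a median of 0.15 and the genes with at least 1 CPM, which include all 7, a median of -0.14. Scaling by library totals in place of TMM raised the median of all genes by 0.19 and made the fold changes of Egr3 and Nr4a3 positive.

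Mice of the same age differed in these genes more than in most others. The SD of log2 CPM among the 24-month mice was 0.90 for Egr1, 2.46 for Egr2, 0.36 for Egr3, 1.17 for Egr4, 1.85 for Nr4a1, 1.26 for Nr4a2 and 1.21 for Nr4a3. The median SD of the 15761 genes with a mean of at least 1 CPM was 0.16. The 6 genes other than Egr3 had a larger SD than 99.4 to 99.97% of these genes, and Egr3 than 86.7%. At 6 months the SD was 0.36 to 1.01, larger than in 88.1 to 99.4% of genes, where the median gene had 0.13. These values chose the set and are given as a description. The SD was larger at 24 months than at 6 months for all 7 genes, by very little for Egr3, and for 58.0% of the genes with at least 1 CPM. This direction turned on mouse 2, since without it the SD at 24 months was larger for 0 of the 7 genes, with a median of 0.15 against 0.53 at 6 months, and for 43.1% of the genes with at least 1 CPM.

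**Figure D2:**
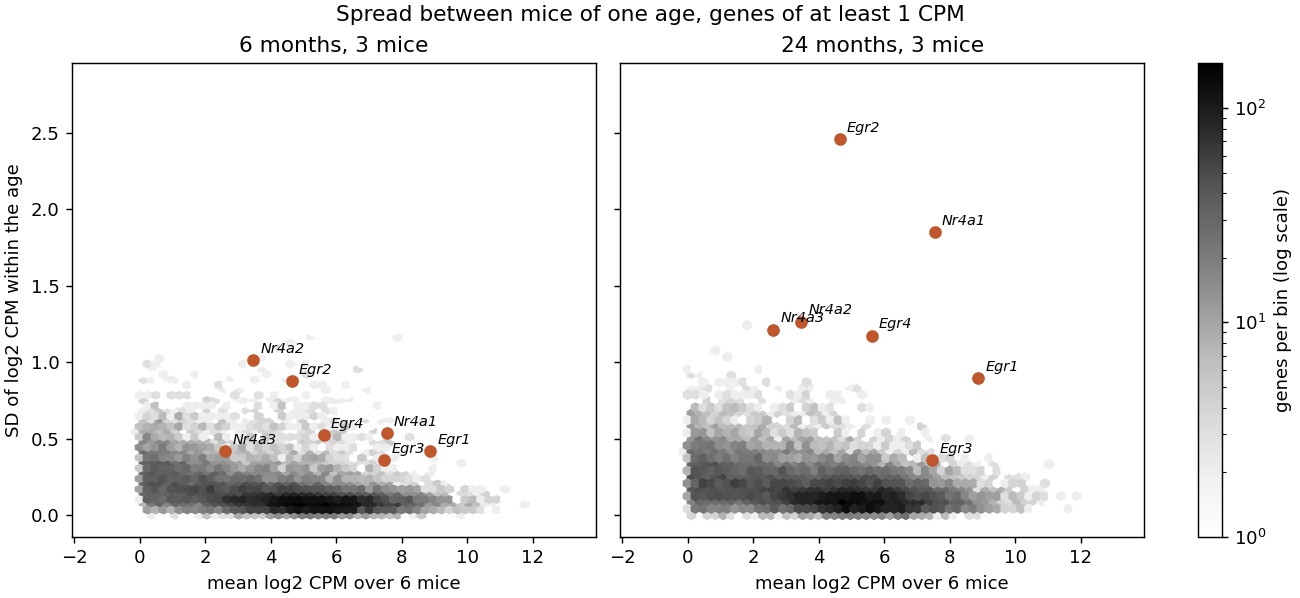
SD of log2 CPM between the 3 mice of an age (vertical) against mean log2 CPM over the 6 mice (horizontal), for genes of at least 1 CPM, with grey shading for genes per bin and the 7 genes as points. Egr2 and Nr4a1 stand highest at 24 months, at 2.46 and 1.85, and Egr3 lies among the other genes at 0.36.

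The age difference of these genes depended on single mice. Without the 24-month mouse 2 the log2 fold changes were -1.67 for Egr1, -3.57 for Egr2, -0.39 for Egr3, -1.43 for Egr4, -2.47 for Nr4a1, -1.99 for Nr4a2 and -1.03 for Nr4a3. The median was -1.67, and Egr1, Egr2 and Nr4a1 then passed 10% FDR, where 0.585% of all genes did. The genes were chosen after they had been seen to differ between these mice, so nothing is read from that count. The Nr4a3 value turned positive when mouse 11 (0.22), mouse 4 (0.26) or mouse 5 (0.36) was left out, and also with edgeR's own filter (0.10) or no filter (0.02) on low counts. The Egr3 value was positive (0.07) without the 6-month mouse 17. Over the 6 ways of leaving out 1 mouse the median of the 7 genes ranged from -1.67 to -0.13. A pair of other settings placed 1 of the 7 genes, Egr1, past 10% FDR, namely the likelihood ratio test of edgeR, where 22.8% of all genes passed, and the test without a filter on low counts, where 8.17% passed.

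**Figure D3:**
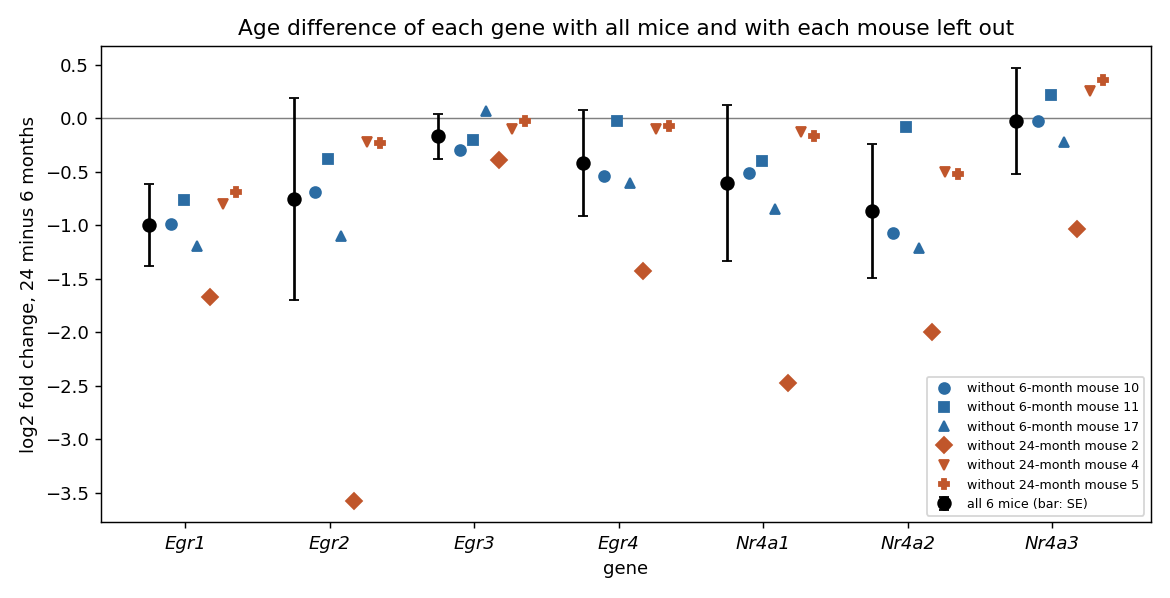
Log2 fold change (24 minus 6 months) of each gene, with all 6 mice as black points with SE bars and with each mouse left out as colored symbols. Leaving out the 24-month mouse 2 moved Egr2 from -0.75 to -3.57 and Nr4a1 from -0.60 to -2.47.

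Per transcript length the lower places in the order of the 7 genes were alike between mice and the upper places differed. The shares within each family shifted. At 6 months the mean TPM was 559 ± 156 for Egr1, 312 ± 103 for Nr4a1, 152 ± 40.4 for Egr3, 107 ± 41.6 for Egr4, 57.1 ± 28.8 for Egr2, 16.0 ± 11.6 for Nr4a2 and 4.12 ± 1.17 for Nr4a3 (SD, n = 3). Of neighbors in this order, the ranges of the 6-month mice were apart only for Egr1 and Nr4a1 and for Nr4a2 and Nr4a3. At 24 months the mean TPM was 303 ± 200, 223 ± 281, 146 ± 38.3, 86.3 ± 75.8, 36.7 ± 54.7, 9.49 ± 8.99 and 4.39 ± 3.90 in the same order of genes (SD, n = 3), and the ranges of all neighbors overlapped. Egr4, Egr2, Nr4a2 and Nr4a3 took the last places in this order in 5 of the 6 mice, and in the 6-month mouse 11 Egr4 was above Egr3. Nr4a1 was above Egr1 in the 24-month mouse 2 and below Egr3 in the mice 17, 4 and 5.

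Egr1 made up 67.4, 65.7 and 57.0% of the summed Egr TPM at 6 months (mice 10, 11 and 17) and 53.4, 54.2 and 49.8% at 24 months (mice 2, 4 and 5). Egr3 made up 14.6, 12.5 and 28.4% at 6 months and 19.1, 33.3 and 36.2% at 24 months. Egr2 was 3.68 to 7.61% of the sum at 6 months, 10.1% in mouse 2, and 1.27 and 1.62% in mice 4 and 5. The mice with low Egr2 shares were thus the mice with high Egr3 shares, with the 6-month mouse 17 between them and the others. Nr4a1 made up 88.6 to 95.8% of the summed Nr4a TPM in every mouse, although that sum ran from 59.3 in mouse 4 to 576 in mouse 2.

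Over the 6 libraries, the log2 CPM of the 7 genes varied together apart from Egr3. Pearson's r of the 15 pairs without Egr3 was 0.84 to 0.99 (n = 6 libraries), and it was as high between an Egr and an Nr4a gene (0.84 to 0.99, 9 pairs) as over all 15. The 6 pairs with Egr3 had r from 0.33 to 0.53. These are descriptions over 6 mice of 2 ages that share library and scaling. The highest likeness to the mean standardized level of the 7 genes, among 11756 other genes with at least 5 CPM, was that of Ndufa13, a subunit of respiratory complex I (r = 0.99, n = 6 libraries), whose levels spanned only 0.21 on the log2 scale. It was followed by Arc (0.98), which encodes a synaptic capsid-like protein made after activity, Snrpd2 (0.98), Fosl2 (0.98), H2aj (0.98), Nab2 (0.97), Vps37b (0.97), Fbf1 (0.97), Junb (0.97) and Fos (0.97). Of these 10 genes Arc, Junb and Fos spanned 2.85 to 2.87 on the log2 scale, Fosl2 1.49 and Nab2 1.32, and the other 5 spanned 0.20 to 0.53. The lowest r was that of Mob3b (-0.99, span 0.89), followed by Cyp2d22, Hpgds, Rock1 and Sorbs3 (-0.97 each, span 0.18 to 0.78). Among genes with r of at least 0.9, 153 in all, 22 spanned more than 1 on the log2 scale.

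The Fos and Jun proteins form AP-1, the other factor made at once after activity, and 3 of its 7 genes had the pattern of the Egr and Nr4a genes, with the 24-month mice 4 and 5 below every 6-month mouse and mouse 2 not. This pattern in TMM-scaled CPM, which was chosen after the values were seen, was that of all 7 Egr and Nr4a genes and of 5.94% of the genes with at least 1 CPM. Egr3 had it only by the margin given above, and not in deposited TPM. Fos was at 109, 134 and 51.0 CPM at 6 months and at 125, 21.8 and 18.5 CPM at 24 months, with the mice in the order above. Junb was at 392, 485 and 240.1 CPM and at 696, 152 and 96.5 CPM in the same order. Jun differed from both, since all 24-month mice (55.1, 37.1 and 45.9 CPM) were below all 6-month mice (92.4, 102 and 76.6 CPM). Jun fell, with a log2 fold change of -0.97 (SE 0.15, adjusted p = 0.052 by edgeR's quasi-likelihood test). It was the only 1 of the 7 AP-1 genes past 10% FDR, where 17.3% of genes with at least 1 CPM fell. The median of the 7 log2 fold changes was -0.24, and -0.84 without mouse 2. Jund, known for largely constitutive transcription, was at 0.49 (SE 0.58). Its levels differed widely here, from 10.25 to 68.32 CPM at 6 months and from 24.63 to 76.35 CPM at 24 months.

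The corepressors Nab1 and Nab2 bind Egr proteins and limit their activity, and Nab2 is itself a target of the Egr proteins. Nab2 followed the mice as the Egr genes did, at 45.6, 52.9 and 42.1 CPM at 6 months and 47.6, 24.3 and 21.1 CPM at 24 months, but its log2 fold change of -0.60 (SE 0.26) did not pass 10% FDR (adjusted p = 0.153 by edgeR). Nab1 was at 14.5 to 19.6 CPM at 6 months and 12.8 to 15.9 CPM at 24 months, without a mouse apart. Of the retinoid X receptors, the partners of Nr4a1 and Nr4a2, none of 3 passed. Rxrg was at 9.42 to 12.5 CPM at 6 months, and at 13.5, 6.97 and 5.76 CPM in mice 2, 4 and 5 (log2 fold change -0.30, SE 0.28). Rxrb was at 11.3 to 24.0 CPM and 15.8 to 22.0 CPM (0.24, SE 0.25).

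**Figure D4:**
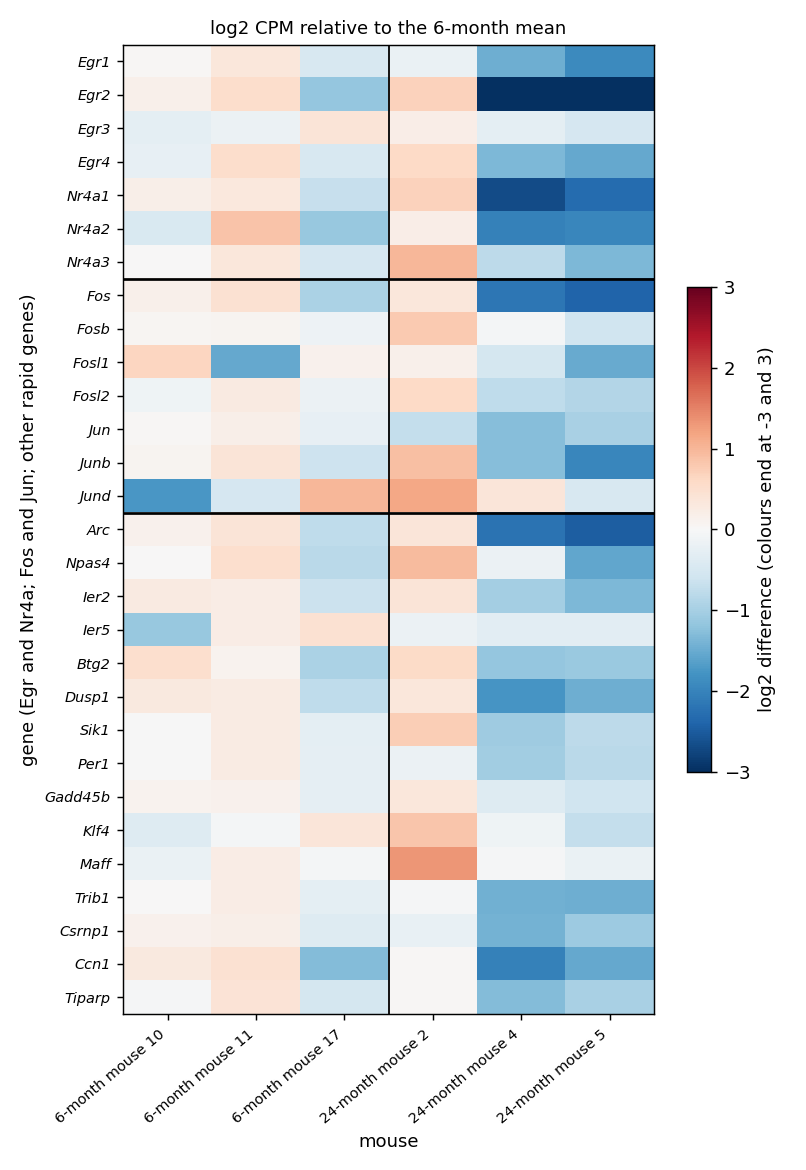
Log2 CPM of the Egr and Nr4a genes, of the 7 Fos and Jun genes and of 15 other rapid genes in each mouse relative to the mean of the 6-month mice, with blue for lower and red for higher. The columns of the 24-month mice 4 and 5 are mostly blue and that of mouse 2 is mostly pale or red, with Jun blue in all 3.

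Among 15 other genes induced rapidly by activity, 11 had the pattern of the Egr and Nr4a genes, against 5.94% of genes with at least 1 CPM. At 10% FDR 2 of the 15 fell, against 17.3% of genes with at least 1 CPM, so that this count was near its background. With library totals or with edgeR's own filter, 0 of the 15 passed 10% FDR. Arc was at 950, 1135 and 508 CPM at 6 months and at 1109, 187 and 155 CPM at 24 months, with a log2 fold change of -0.84 (SE 0.64, adjusted p = 0.394 by edgeR). Per1, a clock gene that also responds to cyclic AMP, fell by 0.62 on the log2 scale (SE 0.21, adjusted p = 0.0913 by edgeR). Csrnp1 fell by 0.82 (SE 0.27, adjusted p = 0.0868 by edgeR). In both, mouse 2 was within the 6-month range, at 58.6 CPM for Per1 and 23.0 CPM for Csrnp1. The median of the 15 log2 fold changes was -0.45, and -1.11 without mouse 2.

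Of the 17 genes that act upstream at these promoters 0 had the pattern, against 5.94% of genes with at least 1 CPM, and 3 fell at 10% FDR, against 17.3%, so that neither count stood far from its background. Crem, a CREB-family gene whose short product represses cyclic AMP response elements, was at 24.7 to 30.6 CPM at 6 months and at 21.8, 17.7 and 16.9 CPM in mice 2, 4 and 5 (log2 fold change -0.52, SE 0.14, adjusted p = 0.060 by edgeR). Mef2c, a neuronal activity-regulated factor, fell by 0.28 on the log2 scale (SE 0.09, adjusted p = 0.0727 by edgeR), and Mrtfa, a coactivator of SRF, by 0.37 (SE 0.11, adjusted p = 0.0761 by edgeR). All 24-month mice were below all 6-month mice for these 3 genes. None of the 3 passed 10% FDR with library totals or with edgeR's own filter. The median of the 17 log2 fold changes was -0.16.

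Of 13 genes induced later than the Egr and Nr4a genes, 5 had the pattern, against 5.94% of genes with at least 1 CPM. Another 4 fell at 10% FDR, against 17.3% of genes with at least 1 CPM, with all 24-month mice below all 6-month mice. With library totals or with edgeR's own filter, 0 of the 13 passed 10% FDR. Dusp6, which removes phosphate from ERK, fell by 0.85 on the log2 scale (SE 0.22, adjusted p = 0.0575 by edgeR), from 124 to 137 CPM at 6 months to 104, 51.2 and 62.8 CPM in mice 2, 4 and 5. Pcsk1, a prohormone convertase, fell by 0.52 (SE 0.14, adjusted p = 0.0615 by edgeR), Plk2, a kinase of synaptic scaling, by 0.46 (SE 0.12, adjusted p = 0.0621 by edgeR), and Scg2, a granin of dense-core vesicles, by 0.41 (SE 0.10, adjusted p = 0.0567 by edgeR). Homer1, named after its values were seen, resembled Egr3 with its highest level in the 6-month mouse 17, 277 CPM against 117 to 186 CPM in the other 5 mice, and r with Egr3 was 0.81 (n = 6 libraries).

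In all, 10 of the 57 companion genes fell at 10% FDR and 0 rose, where 17.3% of the genes with at least 1 CPM fell and 2.43% rose. The share that fell was thus near that of other expressed genes, and 8 of the 10 had all 24-month mice below all 6-month mice. The pattern of the Egr and Nr4a genes was found in 21 of the 57. Without mouse 2, 10 companion genes were called, in a fit where 0.585% of all genes were called in place of 18.4%. Of those 10, Jun, Csrnp1, Per1 and Dusp6 were called with all mice and Arc, Dusp1, Fos, Fosl2, Nab2 and Trib1 were not. The lists were chosen with earlier results of these data known, so nothing is read from that count. Scaled by library totals, 2 were called, Jun lower and Elk3 higher, and 7.16% of all calls were lower in place of 45.4%. Of the neuron markers 2 of 4 (Syt1 and Tubb3) fell as well, by 0.40 and 0.36 on the log2 scale, as did 2 of the 3 excitatory neuron markers above (Camk2a and Neurod6, by 0.28 and 0.44). Of the inhibitory neuron markers 0 of 6 passed in either direction. The neuron markers summed to 7448 to 8778 CPM at 6 months and 5521 to 7134 CPM at 24 months, and the part of that in the companion genes was not tested.

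**Figure D5:**
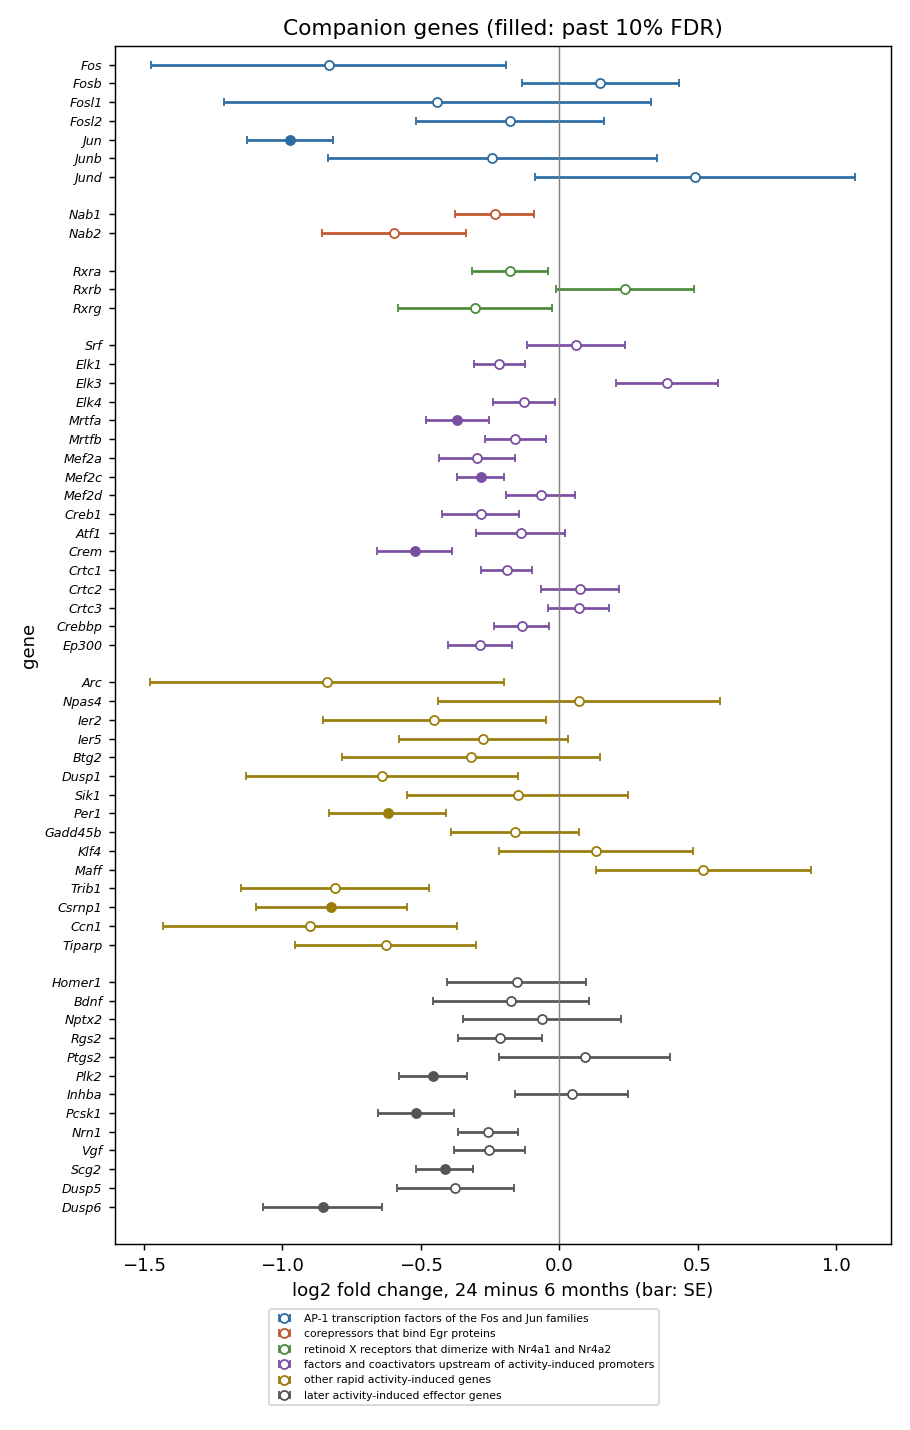
Log2 fold change (24 minus 6 months) with SE of the 57 companion genes, grouped and colored by list, filled where a gene passed 10% FDR. The 10 filled points are all below 0, from -0.97 for Jun to -0.28 for Mef2c, and rapid genes such as Fos and Arc have wide bars (SE 0.64).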

How the data were processed

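RNA-seq libraries of 6 cortices were analysed. The authors trimmed single-end reads with Trim Galore 0.6.4, mapped them to GRCm38 with STAR 2.7.3a and counted them on exons per gene with featureCounts of Subread 2.0.0. The deposited counts were whole numbers in 100% of values, although the stated options split reads with several positions. For genes with at least 100 counts, TPM recomputed here by dividing counts by exonic length fit the deposited TPM within 1%. The members and gene lists were chosen with earlier results of these data known.

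The ages were compared in R 4.3.3 by the quasi-likelihood test of edgeR 4.0.16, with TMM factors and no covariates. Genes had a minimum of 10 summed counts, and Benjamini-Hochberg adjustment was over all genes, at 1% FDR and 10% FDR. The 1% threshold is that of the study, which used edgeR with another gene filter and did not name the test. The script was tested on simulated data. Alternatives replaced the test (likelihood ratio, or DESeq2 1.42.0), the scaling (size factors of DESeq2, or library totals) or the filter, or left out a mouse. Log2 CPM used a prior count of 2, and Python 3.11.15 with pandas 2.3.3 was used for the rest. Genes named were the 7 members, companion genes past 10% FDR (up to 6 of each list) or, where none passed, the 2 of largest change, and the 10 genes of highest and 5 of lowest correlation with the members, apart from Homer1, Jund, Elk3, Dusp1, Trib1 and the markers, which were named after their values were seen. Coordinates are from GENCODE vM21, and 3 listed genes were matched by older symbols in RefSeq. Labels give no batch. Of the excitatory neuron markers, 3 of 4 are reported here. Replicates are separate mice known by number. The p-values set the age difference against the spread between the 3 mice of each age, with that spread moderated over all genes by edgeR.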

Additional observations from a re-analysis of the deposited data

How the results depend on the processing

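No paired analysis was possible because the 2 ages share no mouse number. The 0 genes past 1% FDR became 1703 with the likelihood ratio test, 227 with DESeq2 and 42 without a filter, and the 6040 genes past 10% FDR became 3048 with DESeq2, 1538 with filterByExpr and 4014 without a filter. Leaving out 1 mouse in turn gave 0 to 13 genes at 1% FDR (1 without the 24-month mouse 2, 13 without mouse 5) and 0 to 7998 at 10% FDR (0 without mice 10 or 4, 1 without mouse 11, 2476 without mouse 17, 176 without mouse 2). The count of Egr and Nr4a genes past 10% FDR was 1 with the likelihood ratio test and without a filter, and 0 to 3 with 1 mouse left out (3 without the 24-month mouse 2). The 10 companion genes became 2 with library totals and 1 with filterByExpr, and 0 to 10 with 1 mouse left out, with 0 without the mice 10, 11 or 4 and 6 without the mouse 17. The calls are therefore few or many depending on single mice, and the cause was not tested. The median log2 fold change of the 7 genes ranged from -1.67 to -0.13. The share of calls at 10% FDR that were lower at 24 months was 45.4% with all mice and TMM, 29.3% with the likelihood ratio test, 56.0% with DESeq2, 28.0% with filterByExpr, 34.3% without a filter and 7.16% with library totals. DESeq2 gave no adjusted p for Nr4a1. The median SD of the 7 genes within an age was 0.53 at 6 months and 1.21 at 24 months, and 0.15 at 24 months without mouse 2 and 0.23 at 6 months without mouse 17. With 3 mice of each age, precision was limited by the number of mice rather than by counts, which were at least 93 for each of the 7 genes in every library.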
